A study of Mus musculus with 16 samples.

Results

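A set of 9 genes of the muscle stem cell and fibre formation program were followed in a bulk RNA sequencing series of mouse hamstring muscle: Pax7, Myf5, Myod1, Myog, Myf6, Mymk, Mymx, Cdh15 and Mef2c. They were chosen by gene symbol, and all 9 were found among the 26382 genes of the deposited table. The series measured 16 libraries from 9 female C57BL/6 mice, injected in the hamstring at 8 to 10 weeks of age and killed 14 days later. In 5 mice (m862 to m866) the left leg was labelled as injected with HRS, recombinant histidyl-tRNA synthetase at 3 to 5 mg/mL (HRS legs, 5 libraries), and the right leg with PBS, phosphate-buffered saline (contralateral PBS legs, 5 libraries). PBS alone, on both sides, was given to mice m867 and m868 (PBS-only mice, 4 libraries). Another pair, m860 and m861, was immunized according to the sample titles with an MBP fusion protein at 2 to 3 mg/mL and according to the treatment label with HRS (HRS-MBP, 2 libraries, leg not stated).

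HRS is the target of anti-Jo-1 autoantibodies, and its injection into muscle is used as a model of autoimmune myositis. The labels name no transgene or deletion in any group. The treatment text describes injection of 100 µL over both sides, 50 on each, whereas the titles give HRS to 1 leg of m862 to m866. The groups follow the titles. The legs of m867 and m868 come from 2 animals, so the 4 PBS-only libraries are not 4 independent mice.

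Skeletal muscle fibres do not divide, and new myonuclei come from satellite cells, the stem cells that lie on each fibre and are marked by the transcription factor Pax7. After injury satellite cells activate and become myoblasts under Myf5 and Myod1, leave the cell cycle and differentiate under Myog (myogenin), and fuse with each other or with fibres. Fusion of the membranes depends on 2 muscle proteins, myomaker (Mymk) and myomixer (Mymx). Myf6 is kept by adult fibres, Cdh15 (M-cadherin) is an adhesion protein of satellite cells and myoblasts, and Mef2c is a transcription factor that acts together with the Myf5, Myod1, Myog and Myf6 proteins on muscle genes and is also made by other cell types.

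The values are normalized counts, as deposited, with library totals of 726797 to 1252358. Differences were fitted with limma on log2(normalized count + 0.5) across the 16414 genes with a mean of at least 0.5. A gene was called when its Benjamini-Hochberg adjusted p was under 0.05 and its log2 fold change exceeded 1 in either direction, and a fold change on this scale understates that of a low gene. All 9 genes passed the filter, Mymx only through its values in HRS and HRS-MBP libraries. In muscle tissue, fewer cells of a type and less RNA per cell cannot be told apart. One library stood apart before any comparison. In the HRS leg of m866, mitochondrially encoded genes took 11.1% of the total, against 3.41 to 6.29% in the other HRS legs and 9.69 to 11.2% in the contralateral PBS legs, and its totals of muscle and matrix genes, given below, were close to those of PBS legs. Counts of calls that rest on the HRS legs, and the values of the 9 genes, are therefore also given without both legs of m866, an alternative chosen after seeing the data.

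In the PBS legs the 9 genes spanned a wide range of levels. Per kilobase of annotated exon, the mean normalized count over the 9 PBS libraries was 78.2 ± 7.45 (SD, n = 9) for Myf6, 35.6 ± 6.16 for Mef2c, 19.6 ± 2.24 for Myod1, 8.57 ± 1.56 for Cdh15, 7.98 ± 2.10 for Myog, 0.917 ± 0.241 for Myf5, 0.707 ± 0.153 for Pax7, 0.501 ± 0.293 for Mymk and 0.149 ± 0.105 for Mymx. Cdh15 and Myog, Myf5 and Pax7, and Pax7 and Mymk were neighbours in this order whose means lay closer together than the larger of their SDs. The fibre-expressed Myf6 was thus at the top and both fusion genes at the bottom. In the HRS legs, by contrast, Myog was second at 33.1 ± 20.1 (SD, n = 5) per kilobase, within its SD of Mef2c at 27.3 ± 7.60, and Mymk, at 17.9 ± 14.3, stood beside Myod1 at 18.1 ± 5.47. The exon totals include all annotated isoforms, so the values per kilobase are uncertain. The exon total of Mef2c was the longest, at 15.7 kb.

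**Figure D1:**
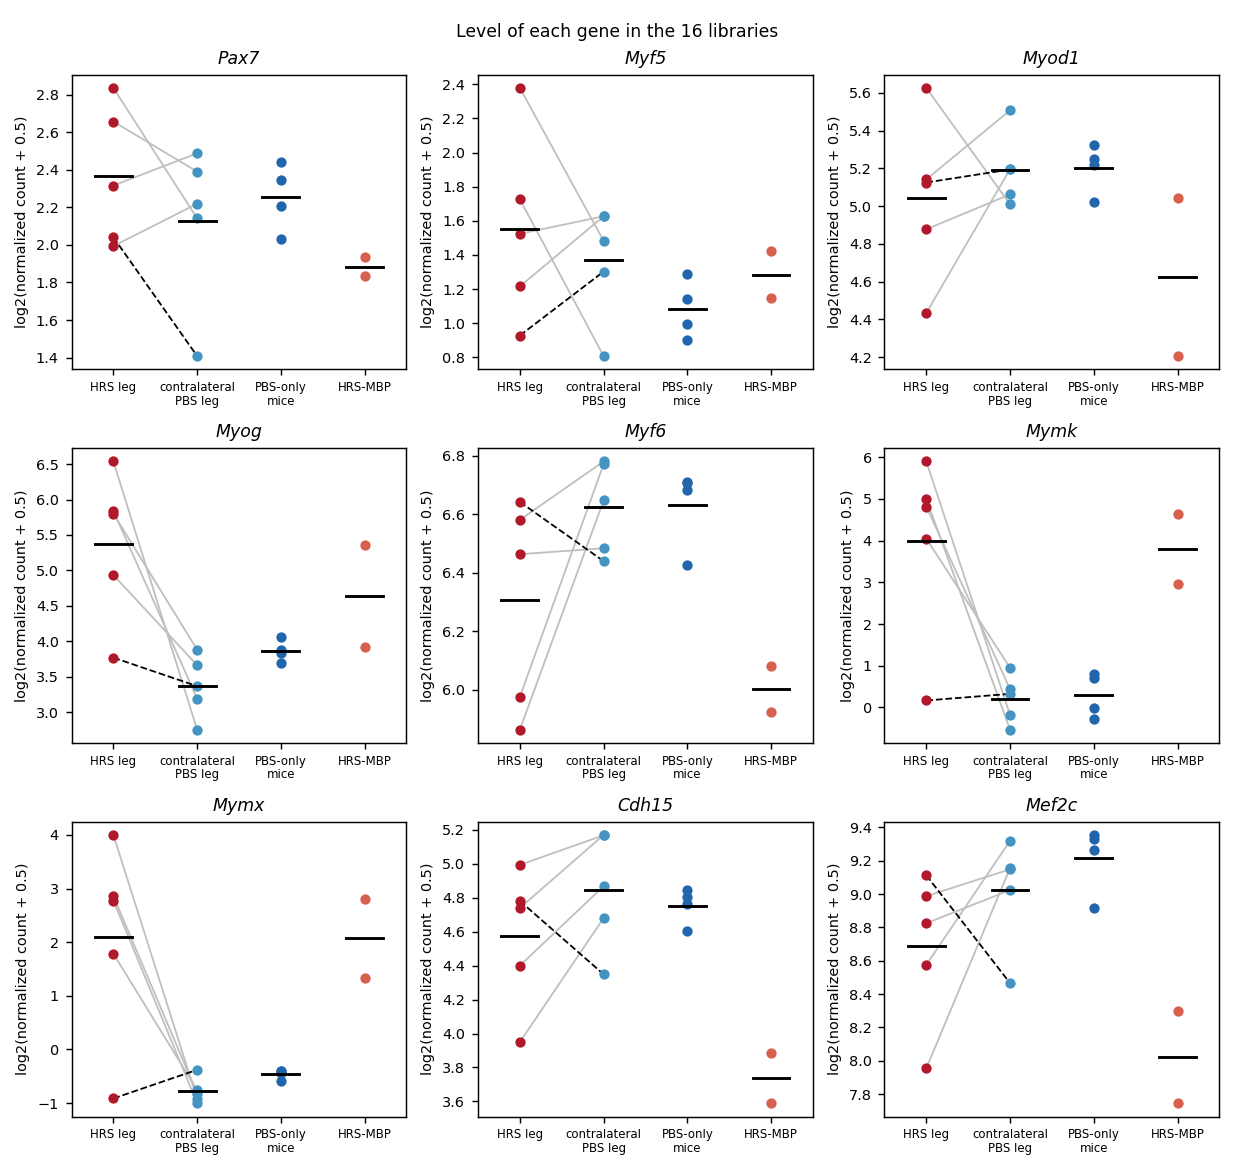
Normalized counts of the 9 genes on the log2(value + 0.5) scale (vertical axes, which differ between panels) in the 16 libraries by group. Points are libraries, bars are group means, and lines join the 2 legs of 1 mouse, dashed for m866. Myog, Mymk and Mymx lay higher in the HRS legs of m862 to m865 than in any PBS leg, and the HRS leg of m866 lay among the PBS legs.

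Pax7 marks satellite cells and is needed to maintain them. Its gene lies on chr4:139737062-139833528 (GRCm38, minus strand). The normalized counts in the HRS legs of m862, m863, m864, m865 and m866 were 5.81, 4.48, 3.48, 6.64 and 3.61, and in their contralateral legs 4.74, 5.11, 4.16, 3.91 and 2.15. The PBS-only legs held 4.58, 4.93, 4.12 and 3.59, and the HRS-MBP libraries 3.32 and 3.07. The HRS and PBS ranges overlapped, and 3 of 5 mice had more Pax7 in the HRS leg. The log2 fold change against the contralateral legs was 0.24, with a 95% interval of -0.20 to 0.68, and it did not pass the test (limma, adjusted p = 0.327). Both HRS-MBP values were below every PBS-only value, and this difference of -0.37 did not pass either (adjusted p = 0.273).

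Myf5, which acts early in the commitment of myoblasts, lies on chr10:107482908-107486134 (minus strand). Its values were 2.81, 2.38, 1.82, 4.70 and 1.40 in the HRS legs, 1.25, 2.59, 2.59, 2.29 and 1.97 in the contralateral legs, 1.71, 1.5, 1.94 and 1.37 in the PBS-only legs and 1.71 and 2.18 in the HRS-MBP libraries. The highest value of all 16 was that of the HRS leg of m865, and the other libraries were intermixed. The log2 fold change of HRS legs was 0.19 against the contralateral legs (adjusted p = 0.511 by limma) and 0.47 against PBS-only mice (interval -0.06 to 1.01, adjusted p = 0.115).

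Myod1, the factor that drives activated satellite cells into the muscle lineage, lies on chr7:46376474-46379099 (plus strand). It measured 34.8, 28.9, 21.1, 48.9 and 34.4 in the HRS legs, 45.0, 32.9, 36.2, 31.7 and 36.1 in the contralateral legs, 32.0, 36.7, 37.6 and 39.5 in the PBS-only legs and 32.4 and 17.9 with HRS-MBP. The HRS legs scattered on both sides of the PBS range, and 4 of 5 mice had less Myod1 in the HRS leg. The log2 fold change was -0.15 against the contralateral legs (interval -0.56 to 0.26, adjusted p = 0.505 by limma). With HRS-MBP it was -0.58 against PBS-only mice (adjusted p = 0.0716).

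Myog is switched on when myoblasts stop dividing and differentiate. It lies on chr1:134289989-134292548 (plus strand). Its values were 56.7, 55.3, 30.1, 92.4 and 13.1 in the HRS legs and 8.62, 14.2, 12.1, 6.23 and 9.80 in the contralateral legs. The PBS-only legs held 12.4, 16.1, 13.7 and 14.1, and the HRS-MBP libraries 40.5 and 14.7. The HRS legs of m862 to m865 and the HRS-MBP library of m860 lay above all 9 PBS legs, whereas the HRS leg of m866 and the HRS-MBP library of m861 lay within their range. Each of the 5 mice had more Myog in the HRS leg, by ratios of 6.58, 3.89, 2.47, 14.8 and 1.34 in m862 to m866. Myog rose by 2.01 on the log2 scale against the contralateral legs (SE 0.411, n = 5 and 5, adjusted p = 0.00108 by limma) and by 1.52 against PBS-only mice (SE 0.436, n = 5 and 4, adjusted p = 0.00795). The exact sign-flip test over the 5 mice gave a two-sided p of 0.0625, the smallest that 5 pairs allow. With HRS-MBP the log2 fold change of Myog was 0.78 (interval -0.42 to 1.98, adjusted p = 0.246).

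The windows before the starts of Myog, which rose, and Myf5, of the same protein family, which did not pass the test, are shown here. They are shown because the proteins of this family bind E-boxes, the letters CANNTG. Of the 9 genes 5 had a window in the RefSeq promoter set (GRCm38.p6). The letters CANNTG read the same on both strands, and they are in capitals in the 250 bases before the start of transcription, written 5′ to 3′ on the gene's strand.
Myog, chr1:134289754-134290003: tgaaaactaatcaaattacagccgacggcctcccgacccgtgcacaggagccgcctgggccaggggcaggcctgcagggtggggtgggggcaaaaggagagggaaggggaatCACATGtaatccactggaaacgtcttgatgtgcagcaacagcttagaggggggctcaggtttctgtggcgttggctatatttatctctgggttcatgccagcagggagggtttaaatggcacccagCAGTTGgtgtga
Myf5, chr10:107486135-107486384: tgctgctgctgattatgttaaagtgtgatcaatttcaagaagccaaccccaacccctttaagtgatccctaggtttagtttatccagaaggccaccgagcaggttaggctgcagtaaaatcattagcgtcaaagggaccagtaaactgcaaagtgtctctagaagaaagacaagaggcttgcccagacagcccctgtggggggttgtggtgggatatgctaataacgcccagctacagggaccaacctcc

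The Myog window held 2 E-boxes, CACATG at bases 138 to 133 and CAGTTG at bases 12 to 7 before the start. The last 15 bases of that window lie inside the Myog gene as GENCODE draws it. The Myf5 window held none. Over all 32851 windows of this length, 66.2% held at least 1 and 31.8% at least 2, so the count for Myog is common. The Cdh15 window held 3, which 12.2% of all windows reached, and the Pax7 window none, but all 250 bases of both lie inside the gene as GENCODE draws it. The 3 Mef2c windows, 1 for each RefSeq start, held 2, 0 and 1, and the last 2 of these windows also lie wholly inside the gene.

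Myf6 (MRF4), the family member of mature fibres, lies on chr10:107492853-107494737, on the same strand as Myf5 and 6718 bases from it. It measured 95.2, 62.4, 57.8, 87.7 and 99.4 in the HRS legs, 109, 109, 99.7, 89.0 and 86.3 in the contralateral legs, 104, 102, 104 and 85.5 in the PBS-only legs and 67.2 and 60.3 with HRS-MBP. The HRS legs of m863 and m864 and both HRS-MBP libraries lay below all PBS legs. Against the contralateral legs the log2 fold change was -0.32 (interval -0.63 to -0.01, adjusted p = 0.0700 by limma). With HRS-MBP it was -0.63 against PBS-only mice, with an adjusted p of 0.0152 but a change under the fold threshold.

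Mymk encodes a membrane protein that myoblasts need to fuse and lies on chr2:27061636-27072179 (minus strand). In the HRS legs it measured 31.5, 27.6, 16, 59.1 and 0.623, and in the contralateral legs 0.192, 0.857, 1.43, 0.382 and 0.754. The PBS-only legs held 1.25, 1.13, 0.485 and 0.326, and the HRS-MBP libraries 24.3 and 7.23. Every HRS leg apart from that of m866, and both HRS-MBP libraries, thus lay above all 9 PBS legs. The lowest of them was at 7.23, against the highest PBS leg at 1.43. Within mice the ratio of HRS leg to PBS leg was 164, 32.3, 11.2 and 155 in m862 to m865 and 0.827 in m866. Mymk rose by 3.78 against the contralateral legs (SE 0.785, n = 5 and 5, adjusted p = 0.00118 by limma), by 3.68 in HRS legs against PBS-only mice (SE 0.833, n = 5 and 4, adjusted p = 0.00193) and by 3.49 with HRS-MBP against PBS-only mice (SE 1.08, n = 2 and 4, adjusted p = 0.0126). The exact sign-flip test over mice gave p = 0.13, and in 4 of the 5 the HRS leg held more Mymk.

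Mymx encodes a short peptide that acts with myomaker in fusion, and lies on chr17:45600971-45602102 (minus strand). Its coding sequence is shown because its shortness is the main feature of this member. It is 255 bases long, 84 codons and a stop, within exon 2 of 2 of the annotated transcript (GENCODE, GRCm38, minus strand), with the start and stop codons in capitals.
Mymx, chr17:45601417-45601671: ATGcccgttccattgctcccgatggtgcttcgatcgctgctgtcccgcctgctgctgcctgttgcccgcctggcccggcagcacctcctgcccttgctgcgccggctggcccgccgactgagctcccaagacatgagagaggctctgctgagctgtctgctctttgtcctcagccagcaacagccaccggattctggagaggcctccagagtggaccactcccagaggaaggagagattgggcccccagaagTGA

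Mymx was the lowest of the 9 genes in PBS muscle. Its values were 6.35, 6.75, 2.95, 15.5 and 0.0312 in the HRS legs and 0, 0.0659, 0.0924, 0.0294 and 0.269 in the contralateral legs. The PBS-only legs held 0.256, 0.162, 0.243 and 0.261, and the HRS-MBP libraries 6.48 and 2.02. The HRS legs of m862 to m865 and both HRS-MBP libraries lay above all PBS legs, and the HRS leg of m866 among them. The step of a library was taken as its most common value above a small cutoff. If 1 step is 1 read, the PBS libraries held 0 to 10 reads of Mymx. The 0 in the PBS leg of m862 then allows a normalized count of up to 0.0961 (3 reads, counting error only). The fitted log2 fold change of Mymx was 2.88 against the contralateral legs (SE 0.635, n = 5 and 5, adjusted p = 0.00169 by limma), 2.56 in HRS legs against PBS-only mice (SE 0.673, adjusted p = 0.00480) and 2.52 with HRS-MBP (SE 0.869, n = 2 and 4, adjusted p = 0.0220). The last call was lost when the legs of each PBS-only mouse were averaged (adjusted p = 0.0707 by limma). Since Mymx passed the filter only through the libraries where it is high, it had to differ, and these calls support nothing beyond the values themselves. In 4 of the 5 mice the HRS leg held more Mymx, with an exact sign-flip p of 0.13.

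Cdh15, the M-cadherin gene, lies on chr8:122847966-122867397 (plus strand) and overlaps the annotated gene Gm20388 on the same strand, so reads may have been split between them. It measured 26.2, 20.6, 15.0, 31.3 and 27.0 in the HRS legs, 35.5, 28.7, 25.1, 35.4 and 19.9 in the contralateral legs, 27.4, 28.2, 23.8 and 26.6 in the PBS-only legs and 14.3 and 11.5 with HRS-MBP. Both HRS-MBP values were the lowest of all 16, and the HRS legs overlapped the PBS legs. The log2 fold change of HRS legs against the contralateral legs was -0.27 (interval -0.67 to 0.13, adjusted p = 0.217 by limma). With HRS-MBP Cdh15 fell by 1.01 against PBS-only mice (SE 0.258, n = 2 and 4, adjusted p = 0.00439).

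Mef2c lies on chr13:83504034-83667080 (plus strand). It measured 507, 381, 248, 453 and 553 in the HRS legs, 567, 638, 570, 520 and 353 in the contralateral legs, 613, 654, 482 and 642 in the PBS-only legs and 314 and 214 with HRS-MBP. Both HRS-MBP libraries and the HRS leg of m864 lay below every PBS leg. In 4 of 5 mice the HRS leg was lower than the PBS leg, and in m866 it was higher, by a ratio of 1.57. The log2 fold change of HRS legs was -0.33 against the contralateral legs (interval -0.79 to 0.13, adjusted p = 0.194 by limma) and -0.52 against PBS-only mice (adjusted p = 0.0598). With HRS-MBP Mef2c fell by 1.19 (SE 0.297, n = 2 and 4, adjusted p = 0.00382). Endothelial cells also make Mef2c. The summed level of 8 endothelial markers was 379 to 451 in the HRS legs, 363 and 382 in the HRS-MBP libraries and 354 to 444 in the PBS legs, so these ranges overlapped. Mef2c is also made by B cells, whose 6 markers summed to 5.00 to 40.2 in the HRS legs and 34.7 and 58.4 with HRS-MBP, against 0.587 to 1.62 in the PBS legs. Ms4a1, Cd79a and Pax5 were at 0 in 1 to 3 of the 9 PBS libraries, and no B cell marker was at 0 in an HRS or HRS-MBP library. The part of either cell type in the Mef2c values was not tested.

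**Figure D2:**
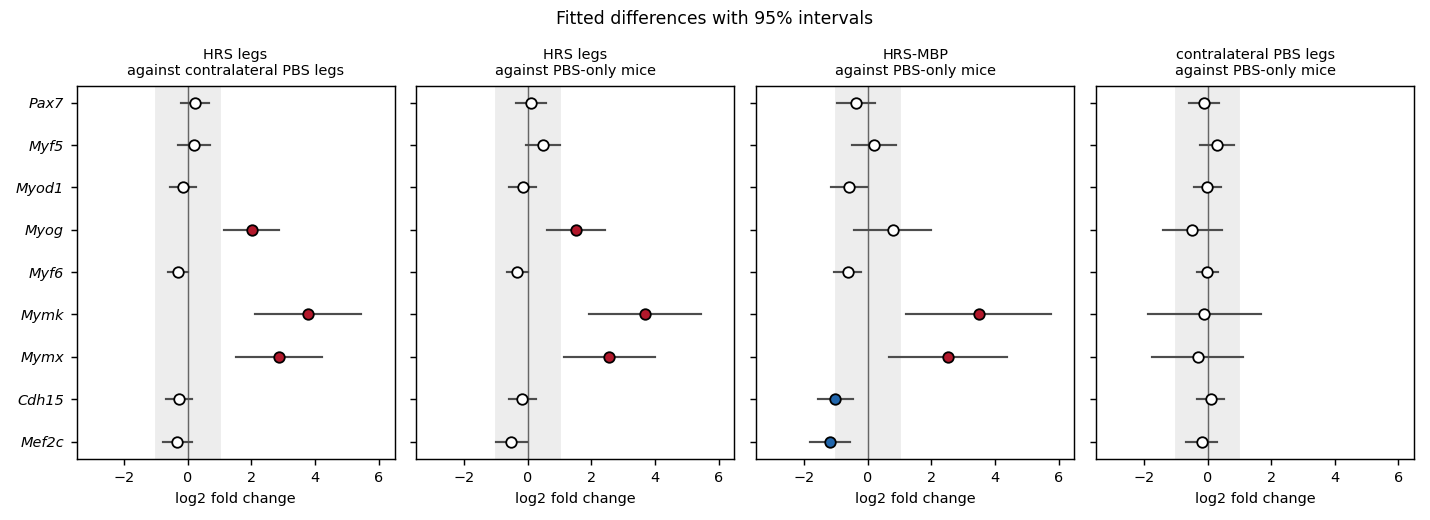
Fitted log2 fold changes (horizontal axis) of the 9 genes in 4 comparisons, with 95% intervals from limma as lines. Red points were called higher, blue points lower and white points were not called, and the grey band marks changes under the fold threshold. Mymk was highest, at 3.78, 3.68 and 3.49, in the first 3 panels, and no gene was called between both kinds of PBS leg.

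The comparison of HRS legs with the contralateral PBS legs asks what changed locally in the injected muscle of 1 animal. In it 3 of the 9 genes were called higher (Myog, Mymk and Mymx) and none lower, where 16.9% of the 16414 genes tested were called higher and 6.27% lower. Without Mymx, which the filter let in through its HRS values, 2 of the other 8 were called higher, and the median log2 fold change of the 8 was 0.02, against 0.077 over all genes tested. With the mouse as a fixed block the same 3 genes were called, at adjusted p of 0.0192, 0.0195 and 0.0254, while limma-voom ended the call of Mymx at a higher log2 fold change of 5.86 (adjusted p = 0.0970). Without both legs of m866 the 3 changes were 2.41, 4.77 and 3.73. In that fit Myf6, Cdh15 and Mef2c had adjusted p of 0.0125, 0.0412 and 0.0165 by limma, with log2 fold changes of -0.45, -0.45 and -0.58 that stay under the fold threshold, while Pax7, Myf5 and Myod1 were at 0.14, 0.33 and -0.17 and did not pass.

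The comparison of HRS legs with PBS-only mice shares the HRS libraries, and the same 3 genes were called higher and none lower, or 2 of the 8 other than Mymx. With limma-voom only Myog was called, and Mymk and Mymx were at higher log2 fold changes of 4.63 and 3.98 with adjusted p of 0.135 and 0.214. Among all genes tested 18.9% were called higher and 5.87% lower. Without both legs of m866 Myog, Mymk and Mymx were at 1.92, 4.64 and 3.31 in this comparison, and all 3 were called. Leaving out the HRS leg of m866 alone moved Mymk and Mymx by 1.94 and 1.69 times on the linear scale. In the fit without both legs Myf5, Myf6 and Mef2c had adjusted p of 0.0310, 0.0205 and 0.0101 by limma, with log2 fold changes of 0.63, -0.41 and -0.63 under the fold threshold, and Pax7, Myod1 and Cdh15, at 0.19, -0.18 and -0.23, did not pass. The contralateral PBS legs against PBS-only mice address whether the side of HRS mice that received PBS differed from muscle of mice without HRS. Of the 9 genes none was called and none had an unadjusted p under 0.05 by limma, while 0.00609% of all genes tested were called. Without both legs of m866 none of the 9 was called either. The widest interval was that of Mymk, from -1.87 to 1.67, so sizable differences in the fusion genes were not detectable between these 9 libraries.

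In the HRS-MBP libraries against PBS-only mice, Mymk and Mymx were called higher, and Cdh15 and Mef2c lower. Without Mymx, for the reason above, 1 of the other 8 was called higher and 2 lower. Of all genes tested 20.7% were called higher and 10.2% lower. With limma-voom none of the 4 was called, with Mymk and Mymx at higher log2 fold changes of 4.47 and 4.37 and adjusted p of 0.180 and 0.208, and after quantile normalization Mymx and Mef2c were not. Each of these 4 calls rested on 1 of the 2 HRS-MBP libraries. Without that of m860 Mymk and Mymx were at 2.65 and 1.79 (adjusted p = 0.141 and 0.211 by limma), and without that of m861 at 4.33 and 3.26, both called. Without that of m861 Cdh15 and Mef2c were at -0.86 and -0.92 (adjusted p = 0.0557 and 0.0682). The lone library left in these fits is assumed to vary like the other groups. Cdh15 also fell just under the fold threshold without either leg of m867, at -1.0 and -0.98. Between HRS-MBP and HRS legs none of the 9 was called, 2 had an unadjusted p under 0.05 by limma, and 0.463% of all genes were called. Those 2 were Cdh15, at -0.83 (interval -1.36 to -0.30, adjusted p = 0.157), and Mef2c, at -0.67 (interval -1.28 to -0.06, adjusted p = 0.309). Without both legs of m866 none was called either. Mymk then moved from -0.19 to -1.15, Mymx from -0.03 to -0.78 and Myog from -0.74 to -1.14, Cdh15 and Mef2c were at -0.78 and -0.56, and the other 4 genes lay between -0.57 and -0.22. The agent, its dose and the mice differ together between these groups and cannot be told apart.

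Ratios within a library do not depend on how libraries were scaled to each other. The ratio of Myog to Pax7 was 8.63 to 13.9 in the HRS legs of m862 to m865, 3.63 in that of m866, 12.2 and 4.78 with HRS-MBP, and 1.59 to 4.55 in the contralateral and 2.7 to 3.95 in the PBS-only legs. The ratio of Myog to Myod1 was 1.42 to 1.91 in the first 4 HRS legs and 0.381 in that of m866. It was 1.25 and 0.817 with HRS-MBP and 0.192 to 0.438 in the PBS legs. The ratio of Mymk to Myog was 0.50 to 0.640 in the HRS legs of m862 to m865 and 0.493 and 0.600 with HRS-MBP, while it was 0.0475 in the HRS leg of m866 and 0.0223 to 0.118 in the PBS legs. Mymk relative to Myog was therefore alike in the 6 libraries where Mymk was high, although their Myog values differed from 14.7 to 92.4. The ratio of Mymx to Mymk in those 6 libraries was 0.184 to 0.280.

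**Figure D3:**
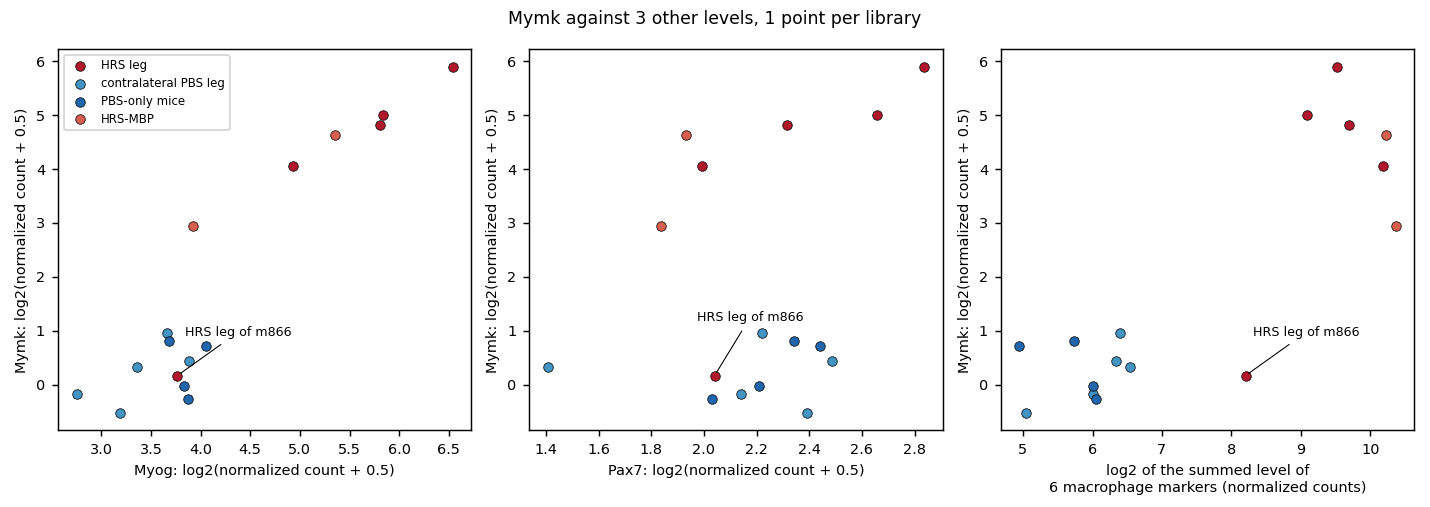
Mymk (vertical axes, log2(value + 0.5)) against Myog, against Pax7 and against the summed level of 6 macrophage markers (horizontal axes, log2 scale), with 1 point per library coloured by group. The 6 libraries with high Mymk had Myog values of 14.7 to 92.4, Pax7 overlapped between the groups, and the HRS leg of m866 combined a Mymk of 0.623 with a macrophage marker sum of 295, above all PBS legs.

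The leg of m866 was not free of inflammation-related transcripts. The 6 macrophage markers summed to 295 in its HRS leg, against 545 to 1167 in the other HRS legs and 30.9 to 92.8 in the PBS legs, and the 6 T cell markers to 14.5, against 32.3 to 106 and 1.31 to 3.23. The 6 proliferation genes summed to 22.6, against 53.8 to 117 and 1.97 to 10.5. The 6 fibroblast markers stood at 2004, against 11108 to 19230 in the other HRS legs and 922 to 2222 in the PBS legs. The 12 mature fibre genes stood at 215964 in the HRS leg of m866 and 158579 in its PBS leg, whereas in m862 to m865 the HRS legs held 50856 to 125252 and the PBS legs 227487 to 260669. In m866 the HRS leg was thus at PBS levels for Myog, Mymk, Mymx, fibroblast markers and mature fibre genes and above them for macrophage, T cell and proliferation genes. In each of the 5 mice the leg labelled HRS held more macrophage marker RNA than the leg labelled PBS, in m866 295 against 92.8, whereas only in m866 did it hold more of the mature fibre genes. Whether the leg labels of m866 are right was not tested, and its ratios between legs (1.34 for Myog, 0.827 for Mymk) follow the labels as given. Its PBS leg held the lowest Pax7, Cdh15, Myf6 and Mef2c values of the 5 contralateral legs.

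All 6 macrophage and 4 of 6 fibroblast markers were called higher in HRS than in contralateral legs, with median log2 fold changes of 3.48 and 1.83. All 6 B cell markers, 3 of the 6 T cell markers (Cd3d, Cd3g and Cd8a) and 3 of the 6 proliferation genes (Ccnb1, Cdk1 and Birc5) had a mean under 0.5 over the PBS libraries and passed the filter only through the HRS and HRS-MBP libraries, where they are high, so calls of these genes support nothing. The other 3 T cell and 3 proliferation genes were all called higher. None of the 8 endothelial markers was called, and their median was 0.06. In HRS-MBP against PBS-only mice 6 macrophage and 2 fibroblast markers were called higher and 1 endothelial gene, Kdr, called lower (named after its value was seen). The tissue label was met by the mature fibre genes, of which Ckm, the muscle creatine kinase, had a mean of 12041 in the HRS legs and 24140 in the contralateral legs. The summed levels of the macrophage, fibroblast, T cell and proliferation lists and Myog, Mymk and Mymx were high in the HRS legs of m862 to m865, while in the HRS leg of m866 the fibroblast markers were at PBS levels with these 3 genes and the macrophage, T cell and proliferation genes were not. Their part in those results was not tested. Without both legs of m866, 6 of 6 macrophage and 5 of 6 fibroblast markers were called higher and no endothelial marker was called. In that fit against the contralateral legs 3474 of all 16414 genes tested were called higher.

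Of the 12 mature fibre genes 6 were called lower and none higher in HRS against contralateral legs, with a median of -1.11. The largest changes among the 6 called genes were those of Myh2 (-1.62), a fast myosin heavy chain, Actn3 (-1.43), the alpha-actinin of fast fibres, and Ckm (-1.18). This count depended on scaling, at 1 lower after quantile normalization and 2 with limma-voom. It also depended on m866, without both legs of which it was 11. Lower calls over all 16414 genes moved too, from 1029 to 1632, 444 and 1748 under these settings in turn. Relative to Ckm, Pax7, Myf6, Mef2c, Cdh15 and Myod1 lay above the range of the PBS legs in the HRS legs of m862 to m865. These were all the members for which this ratio was taken. Pax7 per 1000 units of Ckm was 0.456 to 0.760 in these legs, 0.149 in that of m866, 0.401 and 0.432 with HRS-MBP and 0.123 to 0.230 in the PBS legs. For Myf6 the same ratio was 6.57 to 11.4 in these legs, 4.11 in that of m866, 8.11 and 8.48 with HRS-MBP and 3.37 to 5.37 in the PBS legs. For Mef2c it was 39.8 to 51.8 in these legs, 22.9 in that of m866, 30.1 and 38.0 with HRS-MBP and 19.7 to 34 in the PBS legs. These ratios describe unequal change within a library and do not say which of the 2 genes moved.

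The other genes of the program were taken from lists by role. Their counts in HRS against contralateral legs stand beside 16.9% called higher and 6.27% called lower over all genes tested. Among 12 other satellite cell genes 1 was called higher in HRS against contralateral legs, Megf10, a receptor of satellite cells, at 1.73, and none lower, with a median of 0.15, so this count is no more than the share over all genes. Megf10 measured 6.13, 5.47, 3.88, 13.2 and 1.68 in the HRS legs of m862 to m866 and 0.833 to 1.99 in the contralateral legs. With HRS-MBP the 1 gene called was Sdc4, a cell surface proteoglycan also made by other cells, at 1.81.

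Among 10 tested partners and upstream regulators of the family, 5 were called lower and none higher, with a median of -0.88. Among them were Pax3 (-1.5), the paralogue of Pax7, Lbx1 (-1.25), a homeobox factor of muscle precursors, and Eya1 (-1.19), a transcriptional coactivator of muscle precursors. The count was 4 lower after quantile normalization and 1 lower and 1 higher with limma-voom.

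Of 7 inhibitors of these factors 3 were called higher and none lower, with a median of 0.93. Id2, which sequesters E proteins, was at 2.39, and the repressors Snai2 and Snai1, which can occupy E-boxes, at 1.39 and 1.38. All 3 are also made outside muscle cells, and the count was 1 after quantile normalization and 5 with limma-voom.

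Of 16 tested fusion and adhesion genes 6 were called higher and 1 lower, with a median of 0.83. The 3 highest were Adam12 (3.41), a metalloprotease of fusing myoblasts and of activated connective tissue cells, Myof (2.64), which encodes myoferlin, a membrane repair and fusion protein, and Ncam1 (2.38), an adhesion molecule of regenerating and denervated fibres. The gene called lower was Stab2 (-1.46), a scavenger receptor of endothelial cells that has also been assigned a role in fusion.

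Of 12 targets and embryonic sarcomere genes 9 were called higher and none lower. Myh3, the embryonic myosin heavy chain, was at 3.48, Myl4, an embryonic myosin light chain, at 3.33, and Chrng, the fetal subunit of the acetylcholine receptor, at 3.08. Chrng passed the filter only through the HRS and HRS-MBP libraries, like Mymx, so its call supports nothing. Of the other 11 genes 8 were called higher, with a median of 2.28 over the 11. In the HRS leg of m866 the normalized counts of Myh3, Myl4 and Chrng were 3.94, 15.5 and 0.156, against contralateral means of 14.3, 11.1 and 0.380. With HRS-MBP against PBS-only mice 3 of these 11 were called higher and none lower, among them Tnnt2, the cardiac and embryonic troponin T, at 2.84, and Chrng was at 3.45.

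In that comparison the lists of partners, inhibitors, fusion genes and mature fibre genes had 5 lower, 3 higher, 4 higher and 3 lower calls, with medians of -1.19, 0.88, 0.78 and -1.34 beside 0.11 over all genes tested, where 20.7% were called higher and 10.2% lower. The corresponding counts for HRS legs against PBS-only mice were 4 lower, 4 higher, 6 higher and 1 lower, and 3 lower, and 7 of the 11 targets other than Chrng were called higher, where 18.9% of all genes were called higher and 5.87% lower. These comparisons share libraries and are given side by side. Without both legs of m866, HRS against contralateral legs gave 1 higher call among other satellite cell genes, 6 lower among partners, 5 higher among inhibitors, 8 higher and 1 lower among fusion genes and 8 higher among the 11 targets. Against PBS-only mice the same fit gave 1 higher, 6 lower, 5 higher, 8 higher and 1 lower, and 8 higher and 1 lower for these lists, and 9 of the mature fibre genes lower. The target called lower was Mybph, a myosin binding protein, at -1.07 (named after its value was seen). Calls over all 16414 genes also rose when both legs of m866 were left out. Against the contralateral legs they went from 2781 higher and 1029 lower to 3474 and 1748. Against PBS-only mice they went from 3100 higher and 963 lower to 3580 and 1532.

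**Figure D4:**
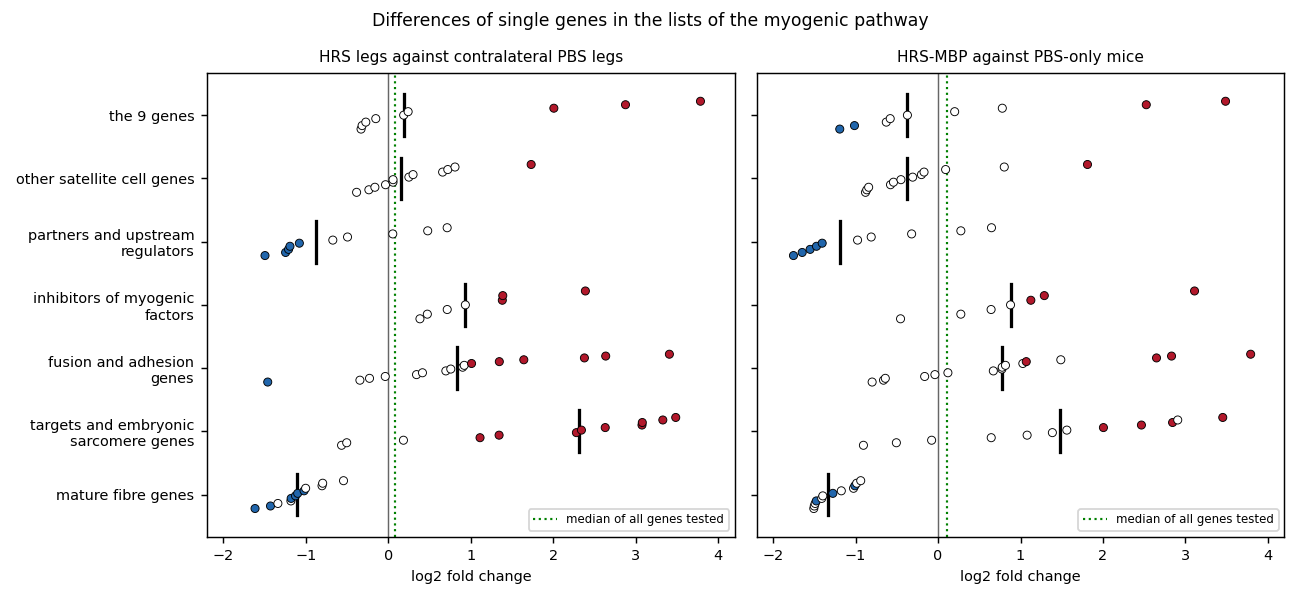
Log2 fold changes (horizontal axes) of single genes, 1 point per gene, in the list of the 9 genes and 6 lists of related genes, for HRS legs against contralateral PBS legs (left) and HRS-MBP against PBS-only mice (right). Red points were called higher, blue lower and white not called, black bars are list medians and the dotted line is the median of all genes tested. Targets and embryonic sarcomere genes had the highest median in both, at 2.31 and 1.47 with Chrng and 2.28 and 1.39 without it.

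The genes whose pattern over the 16 libraries was most like that of each member were ranked by Pearson's r of the log2 values, as a description, since these libraries share treatment groups, mice and depth. For Mymx they were Chrng (0.98), Mymk (0.98) and Cd109 (0.98), and for Mymk Dcakd, Chrng and Dclk1 (0.99, 0.99 and 0.98). For Myog they were Pnmal2 (0.98), Npnt (0.97) and Megf10 (0.97). Megf10 and Chrng were thus both in the lists above and among the closest patterns. Npnt, which encodes the matrix protein nephronectin, had a mean of 36.7 in the HRS legs, 4.09 in the contralateral legs and 18.3 with HRS-MBP, and was at 4.33 in the HRS leg of m866.

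Members that were not called in the HRS legs had other company. Mef2c was closest to Pard3, Samd4 and Erc1 (0.98, 0.98 and 0.98), Cdh15 to Pcbp4, Thop1 and Gpc1 (0.96, 0.95 and 0.94) and Myf6 to Zmynd19, Hacd1 and Ppp1r14c (0.93, 0.92 and 0.92). Of these, Hacd1 is an enzyme of fatty acid elongation that is abundant in muscle. Pax7, Myf5 and Myod1 had weaker best matches, at 0.86, 0.86 and 0.82, with Tsen54, Arhgap24 and Rfx3. Apart from Mymk for Mymx, none of the 3 closest genes of any member was another of the 9.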

How the data were processed

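Hamstring RNA was poly(A)-selected and made into directional libraries, sequenced on 3 Illumina platforms (which library on which is not given in the sources used here). The authors deposited 1 table of normalized counts, a signal on a linear scale and not whole reads. Of low values, up to 20 of the steps defined above, only 74.4 to 76.4% equalled a whole number of steps (tolerance 0.02 of a step). Reads were therefore not recovered and no count model was the main test. The submitters' processing notes name STAR 2.7.8a, limma and the builds mm39 and GRCm39, but 98.9% of the 25652 genes matched by symbol and chromosome have the coordinates of GENCODE M21 (GRCm38), which are used here. The counting tool and the scaling method are not given in the sources used here.

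Here, limma 3.58.1 in R 4.3.3 (lmFit, eBayes with trend) was fitted to log2(value + 0.5) of 16414 genes with a mean of at least 0.5, in 4 groups and 5 comparisons, with Benjamini-Hochberg adjustment over all genes. The limma script was tested on simulated data. Sums, ratios and Pearson's r were computed in Python 3.11.15. The tests over mice were exact sign-flip tests, two-sided. The same mouse number means the same animal, so legs of m862 to m866 are pairs. Over all genes, deviations from the group means correlated between legs of 1 mouse at 0.119, 0.163, 0.0972, -0.0256 and -0.366, and fits with the mouse as a block were alternatives. Replicates are separate mice, except the legs of m867 and m868.

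Named genes are all 9 members, up to 3 called genes with the largest change per list (up to 2 in other comparisons), and for likeness the 3 genes with the highest r. Members and lists were chosen with earlier results of these data known. Other alternatives changed the pseudocount, the filter, the scaling, the shrinkage and the libraries included. Some genes of the lists are not reported here by name.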

Additional observations from a re-analysis of the deposited data

Results flagged for a closer look

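The 9 genes were examined in 3 treatment groups of 4 or 5 libraries each, 27 sets of log2 values, for a library distant from the others of its set. Chance alone marks about 1 in 20 sets, and 1 was marked, Myf6 in the left leg of PBS-only mouse m868, at 85.5 normalized counts, against 102 to 104 in the other 3 PBS-only legs. The HRS leg of m866 did not reach this limit for any gene, since the other HRS legs differed among themselves as well.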

How the results depend on the processing

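No result changed direction while called. For HRS-MBP against PBS-only mice, 4 of the 9 genes were called, but 2 after quantile normalization (Mymk and Cdh15), 0 with limma-voom on values divided by each library's step, and 2 to 4 when 1 library was left out. With a pseudocount of 2 Cdh15 was at -0.94 there, and with the PBS-only legs averaged per mouse Mymx had an adjusted p of 0.0707. For HRS legs against PBS-only mice limma-voom called 1 gene (Myog) instead of 3, and against the contralateral legs 2 (Myog and Mymk). limma-voom rescales by the library total and moved the median of all genes to 0.515, 0.562 and 0.59 in HRS legs against contralateral legs, HRS legs against PBS-only mice and HRS-MBP against PBS-only mice, from 0.0769, 0.147 and 0.108, and quantile normalization moved it to -0.16, -0.163 and -0.235. The split of higher to lower calls in HRS against contralateral legs was 2781 to 1029, 2093 to 1632 after quantile normalization and 4813 to 444 with limma-voom. The count of all genes called for HRS-MBP against HRS legs was 76, but 35 with a mean of at least 2, 4 in a fit of these groups alone, 25 to 590 with 1 library left out (590 without the HRS leg of m864) and 208 without both legs of m866, and that for contralateral legs against PBS-only mice was 1, and 0 to 3 elsewhere. The cause was not tested. With mouse as a replicate block, random or fixed, HRS against contralateral legs again gave 3 called genes. The fixed block was fitted for that comparison only, and with the random block no call of the 9 genes changed in the 5 comparisons. Leaving out libraries 1 at a time kept Myog at 1.72 to 2.41, Mymk at 3.31 to 4.74 and Mymx at 2.40 to 3.63 against the contralateral legs, and at 1.23 to 1.92, 3.20 to 4.64 and 2.08 to 3.31 against PBS-only mice, all called. The calls of Mymx support nothing here either, since it passed the filter only through the libraries where it is high. Members that were not called changed sign under some settings, Pax7 in HRS against contralateral legs from -0.19 after quantile normalization to 0.69 with limma-voom. Mymx in PBS legs lies at no more than 10 steps, so depth limits its differences there.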
